A study of Mus musculus with 70 samples.

Results

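Basal progenitors (BP) were compared with neural stem cells (NSC) of the mouse dorsal cortex at embryonic stage E16.5. RNA sequencing had been done on 3 BP libraries and 4 NSC libraries of this stage, 7 of the 70 libraries in the deposited table. All 7 came from wild-type animals of the C57Bl/6 background. The BP were cells positive for green fluorescent protein (GFP) from a Tbr2::GFP reporter line, in which regulatory sequence of Tbr2 (Eomes), the transcription factor that marks BP, drives GFP. The NSC were GFP-positive cells from a Hes5::GFP line, in which that of Hes5, a Notch target, does so. Both were sorted by flow cytometry from micro-dissected cortex, so reporter line and cell type cannot be told apart here. Newborn neurons (NBN) of the same age, 3 libraries, came from the Tbr2::GFP line as well. The sources used here do not say how they were parted from BP. The labels do not tell separate animals from repeats of 1 animal, so the p-values speak to library-to-library spread alone, and part of it may be technical.

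The unit throughout is TPM, the relative abundance of a gene's transcripts after correction for their length. TPM keeps no sequencing depth, so the depth behind each value is unknown. Of 23078 genes in the table, 13959 had a mean of at least 1 TPM in BP or in NSC and were tested. Of these, 161 reached that mean in BP only and 816 in NSC only, so those genes passed through the group in which they were higher. Such genes are included in the counts of the gene lists below. For them the direction was largely set by the filter, so those counts are descriptions. Just inside the threshold lay Unc80 (mean 0.417 TPM in BP and 1.0005 in NSC) and Pde6a (0.936 TPM in BP and 1.001 in NSC), and just outside it Hlf (0.497 TPM in BP and 0.998 in NSC) and Pstpip2 (0.371 TPM in BP and 0.997 in NSC). Differences are BP minus NSC on log2(TPM + 1), a scale that understates changes of weakly expressed genes. They come with standard errors (SE) from 1 limma fit over all 70 libraries. Calls required a Benjamini-Hochberg adjusted p under 0.05 over all genes tested and a log2 difference of 1 or more in size. Errors after a mean TPM are SD over 3 BP or 4 NSC libraries.

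In the developing neocortex, radial glial stem cells line the ventricle, where Notch signalling and its Hes effectors keep them undifferentiated. A daughter cell that loses Notch signalling switches on proneural factors of the basic helix-loop-helix (bHLH) family and Eomes. It leaves the ventricular surface as a BP, divides in the subventricular zone, and yields neurons. At late embryonic stages BP give rise mainly to neurons of the upper cortical layers, while the radial glia begin to turn to gliogenesis.

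Libraries of 1 group resembled each other more than those of the other. Pearson correlations of log2(TPM + 1) ran from 0.994 to 0.997 among BP, from 0.993 to 0.998 among NSC and from 0.980 to 0.988 between BP and NSC libraries. BP libraries listed 16601 to 16941 genes above 0, and NSC libraries 17446 to 17943. A pair of libraries stood apart. NSC replicate 4 had the most radial glia RNA (summed TPM of 20 genes 5202, against 2592 to 3498 in the other 3) and the most BP RNA (15 genes, 2811 against 1489 to 1655). BP replicate 1 had the highest BP list sum of its group (3597, against 2889 and 2984) and the highest G2 and mitosis sum (747, against 410.1 and 416). Both were lowest of their group in the neuron list. Every library was labelled female, yet NSC replicates 2, 3 and 4 had Y-linked transcripts of 139.8, 173 and 186 TPM (sum of 4 genes) and Xist at 4.64, 3.55 and 9.48 TPM. NSC replicate 1 and the 3 BP libraries had Y-linked sums of at most 0.552 TPM and Xist between 198 and 351 TPM. Xist, the RNA of the inactive X chromosome, differed by 3.97 ± 2.16 with overlapping groups and was not called (limma, adjusted p = 0.142).

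Far more genes were lower in BP than higher. By limma, 962 of 13959 genes (6.89%) were called, of which 817 (5.85%) were lower in BP and the remaining 1.04% higher. Higher genes made up 15.1% of the calls on the TPM as deposited, 21.4% (178 higher, 654 lower) after median ratio scaling and 37.3% (288 higher, 485 lower) when the libraries were quantile normalized. The median difference of all genes tested was -0.10 as deposited, and -0.00 and 0.04 under these scalings. Every BP library lay below every NSC library for 3987 genes (28.6%), among them 793 of the 817 called lower. Genes called lower reached 5.80 in size and those called higher 3.31. For 206 of the genes called lower, the BP mean was under 1 TPM. Without NSC replicate 4 and BP replicate 1 the counts were 159 higher and 800 lower.

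**Figure D1:**
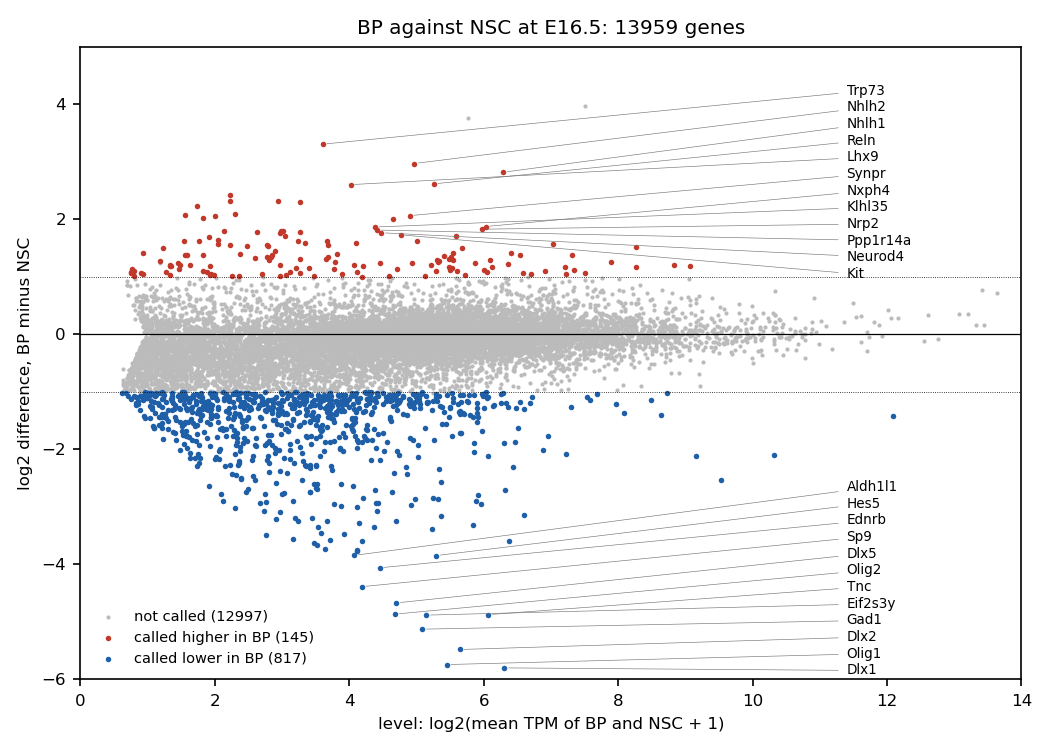
Log2 difference of BP minus NSC at E16.5 (vertical axis) against the log2 of the mean level of both groups (horizontal axis, TPM + 1) for 13959 genes. Red points are genes called higher in BP, blue points the 817 called lower, and names mark the 12 greatest called differences each way whose higher group averaged 20 TPM or more. The blue points reach farther from 0 (Dlx1, -5.80) than the red ones (Trp73, 3.31).

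The BP identity genes were higher in BP in part. Of 15 tested genes of the BP list, 6 were called higher (Neurog1, Neurod1, Neurod4, Mfap4, Nhlh1 and Sstr2), far above the 1.04% of all genes, and none lower, and the median difference of the list was 0.76. Eomes itself, which drives the reporter, had 715, 501 and 516 TPM in BP libraries, against 247, 318, 352 and 672 TPM in NSC libraries. Its groups overlapped through NSC replicate 4, and its difference of 0.62 ± 0.23 was below the minimum of 1. Nhlh1, a bHLH factor of cells leaving the cell cycle, had 137, 131 and 139.6 TPM in BP libraries, against 13.3, 18.3, 19.0 and 24.4 TPM in NSC libraries. The BP libraries were nearly equal and all more than 5 times the highest NSC library. The difference was 2.82 ± 0.16 (limma, adjusted p = 2.28e-20), a ratio of means of 7.24. NBN had 5.85, 7.84 and 6.08 TPM, below every library of both other groups.

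Neurod4, a proneural bHLH factor, had 41.2, 28.3 and 30.3 TPM in BP libraries, against 7.32, 7.60, 7.68 and 14.6 TPM in NSC libraries, a difference of 1.77 ± 0.21 (limma, adjusted p = 1.36e-09). The highest NSC library was replicate 4, still below every BP library, and NBN had at most 1.57 TPM. Its relative Neurod1 averaged 229.8 ± 30.8 TPM in BP and 87.6 ± 13.1 TPM in NSC (1.38 ± 0.20). Neurog1, a proneural factor upstream of Neurod genes, averaged 9.24 ± 2.32 TPM in BP and 3.21 ± 2.19 TPM in NSC (1.38 ± 0.23). The groups did not overlap for either gene. Sstr2, a somatostatin receptor, averaged 424 ± 68.1 TPM in BP and 188 ± 36.1 TPM in NSC (1.18 ± 0.18), and Mfap4, an extracellular matrix protein, 451 ± 74.6 TPM in BP and 164.8 ± 69.5 TPM in NSC (1.51 ± 0.19). Neurog2, the proneural factor that activates Eomes, was under the minimum at 0.71 ± 0.19, as were Insm1 (0.57 ± 0.12), a zinc finger factor of progenitor delamination, and Mfng (0.76 ± 0.14), a glycosyltransferase acting on Notch. Btg2 and Hes6 differed by 0.06 and 0.04. Leaving out single libraries gave 6 or 7 genes called higher.

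The promoter of Nhlh1 is shown because this gene had the largest difference of the BP list. Its letters, the 250 bases before the RefSeq start (GRCm38.p6, chr1:172057597-172057846, minus strand), are given 5′ to 3′ with the E-box CAGATG, a bHLH binding motif, in capitals. The window also holds 1 match of TGGGAA, the core letters bound by the Notch partner Rbpj. It lies on the other strand (ttccca) and is left in lower case.
Nhlh1: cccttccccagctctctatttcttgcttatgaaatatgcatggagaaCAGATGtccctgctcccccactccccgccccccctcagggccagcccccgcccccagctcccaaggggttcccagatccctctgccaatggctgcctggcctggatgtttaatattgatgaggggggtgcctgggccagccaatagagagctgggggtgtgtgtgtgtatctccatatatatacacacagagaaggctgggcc

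Among the largest differences in favour of BP were those of markers of Cajal-Retzius cells, the early-born neurons of the cortical surface. Of 9 tested markers 6 were called higher (Trp73, Nhlh2, Reln, Lhx1, Ebf3 and Lhx5), against 1.04% of all genes, and none lower, with a list median of 1.72. Of these markers, Lhx1 and Lhx5 averaged under 1 TPM in NSC and passed the level filter through BP only. Trp73, a p53-family transcription factor of these cells, had 18.2, 21.4 and 23.6 TPM in BP libraries, against 0.952, 1.06, 2.14 and 0.915 TPM in NSC libraries. No BP library was below 8 times the highest NSC library, replicate 3. The difference was 3.31 ± 0.23 (limma, adjusted p = 2.95e-17), a ratio of means of 16.7. Reln, which encodes the secreted glycoprotein reelin, had 57.2, 64.3 and 71.1 TPM in BP libraries, against 7.20, 10.47, 17.3 and 6.30 TPM in NSC libraries, a difference of 2.62 ± 0.27 (limma, adjusted p = 1.72e-11). All 3 BP libraries were at least 3 times as high as NSC replicate 3. NBN had 61.2, 79.0 and 99.1 TPM, a range that overlapped with BP.

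Nhlh2, a bHLH factor related to Nhlh1, had 54.5, 56.6 and 52.2 TPM in BP libraries, against 5.20, 5.87, 7.40 and 5.97 TPM in NSC libraries. The BP libraries were within 5 TPM of each other and far above every NSC library, and the difference was 2.97 ± 0.22 (limma, adjusted p = 2e-16). Lhx1, a LIM-homeodomain factor, averaged 4.54 ± 1.56 TPM in BP and 0.138 ± 0.0257 TPM in NSC (2.24 ± 0.24), and its relative Lhx5 4.09 ± 1.02 TPM in BP and 0.981 ± 0.489 TPM in NSC (1.38 ± 0.20). The helix-loop-helix factor Ebf3 averaged 11.6 ± 1.83 TPM in BP and 2.84 ± 0.613 TPM in NSC (1.72 ± 0.16). Calb2 (calretinin), also a marker of these cells, averaged 24.9 ± 4.84 TPM in BP and 24.7 ± 4.35 TPM in NSC (0.01 ± 0.25), with overlap. Ndnf (0.06 ± 0.19) and the chemokine receptor gene Cxcr4 (0.51 ± 0.16) were not called either. The summed level of the 9 markers was 235, 222 and 245 TPM in BP libraries, against 75.5, 81.2, 91.0 and 68.9 TPM in NSC libraries, and 136 to 173 TPM in NBN libraries. The call of all 6 genes held with any single library left out. Since these are bulk samples, a larger share of cells of a type and more RNA per cell cannot be told apart, here or in any other list.

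Trp73 has 2 starts in the RefSeq table. The 250 bases before the upstream one (GRCm38.p6, chr4:154139876-154140125, minus strand) follow with the E-box CAGCTG in capitals, shown because this gene headed the differences. The window before the downstream start (chr4:154097174-154097423) held none of the 3 motifs searched.
Trp73, upstream start: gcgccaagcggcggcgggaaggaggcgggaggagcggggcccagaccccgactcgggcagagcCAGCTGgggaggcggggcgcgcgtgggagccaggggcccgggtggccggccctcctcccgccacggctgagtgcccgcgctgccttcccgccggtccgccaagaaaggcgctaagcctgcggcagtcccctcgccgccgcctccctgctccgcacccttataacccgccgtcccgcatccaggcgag

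**Figure D2:**
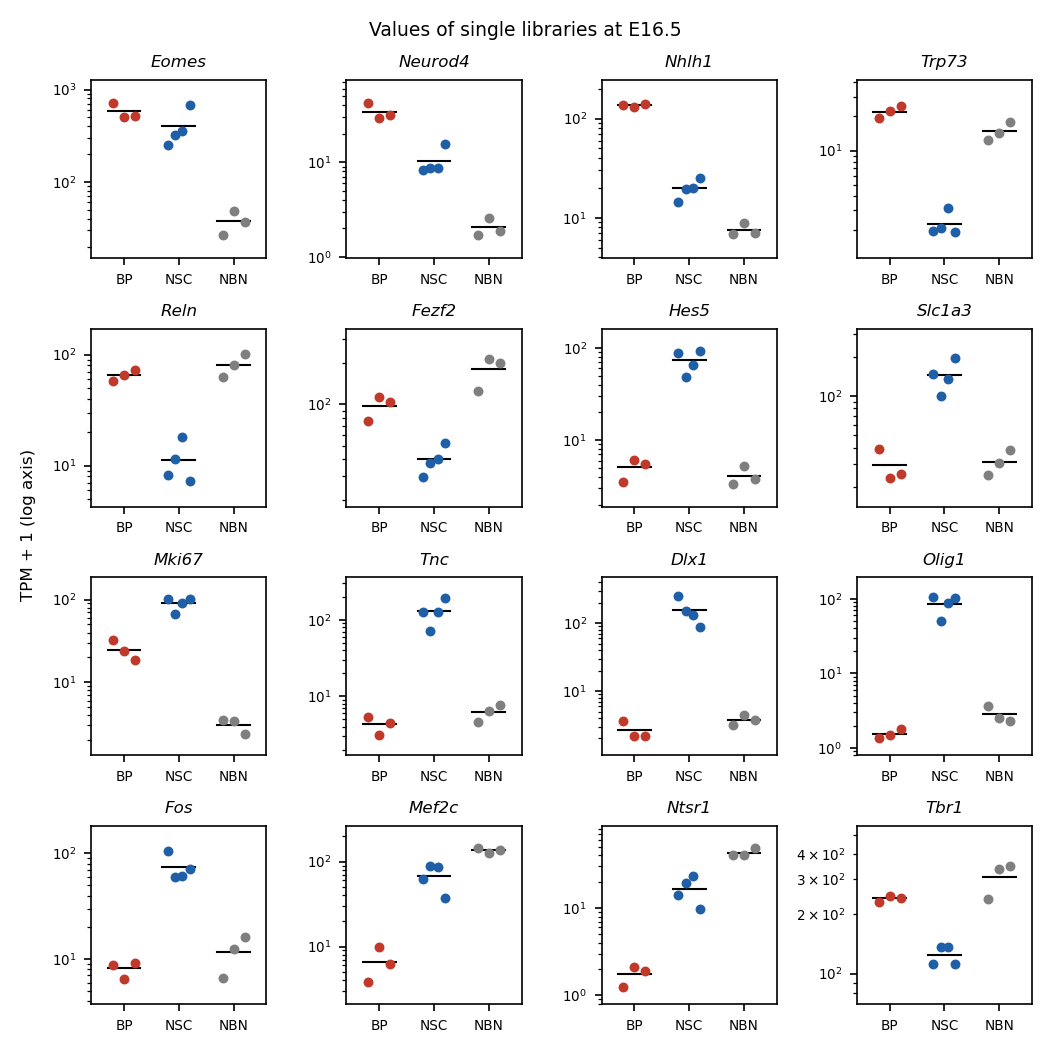
TPM + 1 on a log axis for 16 genes in the single libraries of BP (red, 3), NSC (blue, 4) and NBN (grey, 3) at E16.5, with the group mean as a black line. BP lie above NSC in every library for Neurod4, Nhlh1, Trp73, Reln, Fezf2 and Tbr1, below for Hes5, Slc1a3, Mki67, Tnc, Dlx1, Olig1, Fos, Mef2c and Ntsr1, and overlap with NSC for Eomes.

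A further 6 genes among the largest differences in favour of BP belonged to none of the gene lists. Lhx9, a LIM-homeodomain factor, had 22.1, 28.8 and 29.5 TPM in BP libraries, against 5.10, 2.98, 3.34 and 3.03 TPM in NSC libraries, a difference of 2.60 ± 0.25 (limma, adjusted p = 3.86e-12). Its NBN level overlapped with that of NSC, at 4.47, 3.23 and 1.996 TPM. Synpr (synaptoporin, a synaptic vesicle protein) had 65.9, 36.0 and 40.4 TPM in BP libraries, against 10.4, 8.85, 8.81 and 13.1 TPM in NSC libraries (2.07 ± 0.21), highest in BP replicate 1. Nxph4, a secreted ligand of the neurexin family of synaptic receptors, averaged 101 ± 6.89 TPM in BP and 27.6 ± 8.23 TPM in NSC (1.88 ± 0.17), and Klhl35, of the Kelch-like family, 31.7 ± 2.84 TPM in BP and 8.0002 ± 1.05 TPM in NSC (1.87 ± 0.19). Kit, the receptor for stem cell factor, averaged 40.7 ± 3.38 TPM in BP and 11.6 ± 1.66 TPM in NSC (1.73 ± 0.19). Ppp1r14a, an inhibitor of myosin phosphatase, averaged 32.3 ± 11.48 TPM in BP and 8.35 ± 2.46 TPM in NSC (1.81 ± 0.29). None of these 6 genes overlapped between BP and NSC. Of the 6, Kit alone averaged over 20 TPM in NBN (27.7 TPM).

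Among 22 tested axon growth and guidance genes, 4 were called higher in BP, against 1.04% of all genes, and 1 lower, a share near the 5.85% of all genes. The semaphorin receptor Nrp2 had 79.8, 104.9 and 107 TPM in BP libraries, against 26.5, 22.6, 35.1 and 22.9 TPM in NSC libraries, a difference of 1.83 ± 0.23 (limma, adjusted p = 8.43e-09), without overlap. The transmembrane semaphorin Sema6d averaged 134 ± 31.8 TPM in BP and 49.9 ± 6.06 TPM in NSC (1.39 ± 0.20), the netrin receptor Dcc 122 ± 17.7 TPM in BP and 45.9 ± 12.1 TPM in NSC (1.42 ± 0.35), and the secreted Robo ligand Slit3 5.89 ± 1.64 TPM in BP and 1.45 ± 0.960 TPM in NSC (1.55 ± 0.28). Robo1, a Slit receptor, was called lower with overlapping groups (-1.08 ± 0.30), but not without BP replicate 1 (-0.72), NSC replicate 3 (-0.92) or both libraries that stood apart (-0.98), nor after median ratio scaling (-0.97).

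Deep layer genes split, with 3 of 12 tested called higher and 2 lower, against 1.04% and 5.85% of all genes. Of 12 tested, Fezf2 (96.1 ± 19.6 TPM in BP and 38.8 ± 9.38 TPM in NSC; 1.30 ± 0.19), a selector of subcerebral projection neurons, Zfpm2 (17.4 ± 1.17 TPM in BP and 6.25 ± 0.652 TPM in NSC; 1.34 ± 0.17) and Crym (19.2 ± 6.77 TPM in BP and 6.94 ± 3.49 TPM in NSC; 1.39 ± 0.45) were called higher in BP. Tbr1, the layer 6 factor, had 228, 245 and 240.3 TPM in BP libraries, against 111, 135.4, 135.4 and 111 TPM in NSC libraries, without overlap but just under the minimum at 0.95 ± 0.17, and Sox5 stood at 0.97 ± 0.24. Called lower were Ntsr1, a layer 6 receptor gene, and the ETS factor Etv1 (-2.10 ± 0.30). Ntsr1 had 0.255, 1.09 and 0.927 TPM in BP libraries, against 13.1, 18.1, 22.2 and 8.86 TPM in NSC libraries, a difference of -3.20 ± 0.22 (limma, adjusted p = 2.45e-17). NBN had 39.1, 39.2 and 47.4 TPM, more than NSC. Without BP replicate 1 the count of deep layer genes called higher was 5, with Sox5 at 1.19 and Bcl11b at 1.06, and without BP replicate 3 Crym was lost (1.17).

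Radial glia genes were lower in BP. Of 20 tested, 15 were called lower, against 5.85% of all genes, and none higher, with a median of -1.83, and 16 lay below NSC in every library, against 28.6% of all genes. Hes5 had 2.52, 5.17 and 4.53 TPM in BP libraries, against 87.1, 47.4, 64.8 and 90.3 TPM in NSC libraries, a difference of -3.85 ± 0.20 (limma, adjusted p = 1.04e-21). The NSC were sorted on a Hes5 reporter, so this difference was selected for by the design. Ednrb, the endothelin receptor type B, had 1.24, 1.33 and 1.61 TPM in BP libraries, against 47.6, 26.3, 34.7 and 52.9 TPM in NSC libraries, a difference of -4.06 ± 0.21 (limma, adjusted p = 1.04e-21). Mfge8, a secreted glycoprotein, averaged 11.1 ± 2.01 TPM in BP and 154 ± 60.6 TPM in NSC (-3.60 ± 0.22), the glial fatty acid binding protein Fabp7 205 ± 38.3 TPM in BP and 1267 ± 581 TPM in NSC (-2.53 ± 0.26), and the glutamate transporter Slc1a3 28.2 ± 8.45 TPM in BP and 144 ± 40.0 TPM in NSC (-2.31 ± 0.19). Groups did not overlap for any of these genes.

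The stem cell transcription factors Sox2 (37.2 ± 12.4 TPM in BP and 138 ± 37.4 TPM in NSC; -1.87 ± 0.17), Sox1 (-2.13 ± 0.16) and Sox9 (-1.80 ± 0.18) were lower in BP as well. Other radial glia genes were not called. Pax6 had 102, 71.2 and 87.1 TPM in BP libraries, against 98.1, 89.0, 95.1 and 181 TPM in NSC libraries, with overlap and no call (-0.36 ± 0.18), and Lhx2 (0.66 ± 0.14) and Emx2 (0.87 ± 0.15) leaned to BP without reaching the minimum. Vim (-1.03 ± 0.18) and Nr2e1 (-1.06 ± 0.18) were called lower, but not without NSC replicate 4 (-0.74 and -0.85), nor after median ratio scaling (-0.92 and -0.95). Vim was also lost without BP replicate 1 (-0.98) and Nr2e1 without BP replicate 2 (-0.97). Of 11 tested outer and late radial glia genes 7 were called lower, against 5.85% of all genes. They were led by Tnc (tenascin C, a matrix protein), which had 4.28, 2.11 and 3.40 TPM in BP libraries, against 124.5, 71.4, 126 and 194 TPM in NSC libraries, a difference of -4.88 ± 0.28 (limma, adjusted p = 1.87e-20). Hopx averaged 3.07 ± 1.13 TPM in BP and 18.46 ± 11.9 TPM in NSC (-2.12 ± 0.26).

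Within the Notch pathway, 10 of 23 tested genes lay below NSC in every library, against 28.6% of all genes. Another 5 lay above, as did 1746 of 13959 genes. None of the 23 was called higher and 7 were called lower in BP, against 5.85% of all genes. They comprised the receptors Notch2 (4.71 ± 0.397 TPM in BP and 22.3 ± 5.85 TPM in NSC; -1.99 ± 0.19) and Notch3 (-1.86 ± 0.20), the ligands Jag1 (-1.38 ± 0.15) and Jag2 (-1.06 ± 0.17), the modifying enzyme Lfng (0.730 ± 0.248 TPM in BP and 16.0 ± 5.59 TPM in NSC; -3.25 ± 0.21), and the effectors Hes1 (0.675 ± 0.174 TPM in BP and 9.43 ± 5.14 TPM in NSC; -2.53 ± 0.26) and Hes5. Jag2 was lost without BP replicate 1 (-0.88), NSC replicate 2 (-0.98) or NSC replicate 3 (-0.91), and after median ratio scaling (-0.95). The ligands Dll1 (-0.27 ± 0.13) and Dll3 (0.23 ± 0.15) and the DNA-binding partner Rbpj (0.57 ± 0.10) were not called. Hey1, an effector of the same family as Hes5, pointed the other way and had 25.2, 34.9 and 32.3 TPM in BP libraries, against 14.1, 13.1, 13.1 and 20.1 TPM in NSC libraries. The groups did not overlap, and its difference of 0.99 ± 0.13 fell just short of the minimum. It passed in 10 alternatives, such as without NSC replicate 4 (1.13).

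The 250 bases before the Hes5 start (GRCm38.p6, chr4:154960673-154960922, plus strand) are shown because its regulatory sequence drives the NSC reporter. Capitals mark TGGGAA on either strand, the core letters bound by the Notch partner Rbpj.
Hes5: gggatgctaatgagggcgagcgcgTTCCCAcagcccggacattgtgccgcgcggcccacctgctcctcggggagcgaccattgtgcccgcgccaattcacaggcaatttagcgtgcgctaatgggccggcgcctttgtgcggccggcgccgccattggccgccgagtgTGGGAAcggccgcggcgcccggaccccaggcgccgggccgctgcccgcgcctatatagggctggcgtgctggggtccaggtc

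Growth factor pathways differed unevenly. The counts of lower genes that follow for the FGF, BMP, Sonic hedgehog and Hippo lists stand beside 5.85% of all genes. In the FGF receptor and ERK feedback list 7 of 15 tested genes were called lower in BP and none higher. They included the feedback inhibitors Spry2 (9.26 ± 1.38 TPM in BP and 41.2 ± 7.14 TPM in NSC; -2.03 ± 0.13) and Spry4 (-2.15 ± 0.13), the phosphatase Dusp6 (-1.68 ± 0.19), and the ETS factors Etv4 (-2.78 ± 0.23) and Etv5 (8.07 ± 1.69 TPM in BP and 47.7 ± 5.63 TPM in NSC; -2.43 ± 0.20). Fgfr2 (-1.18 ± 0.15) was not called without BP replicate 1 (-0.93). Dusp4, another phosphatase of the pathway, averaged 285 ± 15.6 TPM in BP and 147 ± 31.6 TPM in NSC, at 0.98 ± 0.21 just under the minimum, which it passed without any of BP replicate 1 (1.02), NSC replicate 2 (1.06) and NSC replicate 3 (1.08). Of 12 BMP pathway genes 4 were called lower, among them the inhibitors of differentiation Id1 (2.62 ± 0.438 TPM in BP and 18.01 ± 8.72 TPM in NSC; -2.30 ± 0.25) and Id3 (1.02 ± 0.212 TPM in BP and 14.8 ± 5.61 TPM in NSC; -2.90 ± 0.24).

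Of 10 Sonic hedgehog pathway genes, Gas1, a co-receptor (5.37 ± 0.351 TPM in BP and 53.1 ± 26.6 TPM in NSC; -2.98 ± 0.21), Gli1 (-1.96 ± 0.19) and Ptch1 (-1.13 ± 0.27) were called lower. Of 13 Hippo pathway genes 5 were lower, including the effectors Yap1 (-1.28 ± 0.19) and Wwtr1 (-1.29 ± 0.18) and their targets Cyr61 (0.931 ± 0.379 TPM in BP and 23.3 ± 10.8 TPM in NSC; -3.58 ± 0.30) and Ctgf (-1.97 ± 0.23). The Wnt list ran in both directions. Lef1, a nuclear effector of Wnt signalling, had 9.9999, 10.9 and 13.6 TPM in BP libraries, against 2.57, 2.59, 2.87 and 2.31 TPM in NSC libraries, a difference of 1.79 ± 0.16 (limma, adjusted p = 2.43e-13), without overlap. The ligand Wnt5a averaged 22.3 ± 3.05 TPM in BP and 9.11 ± 1.59 TPM in NSC (1.21 ± 0.16). Another ligand, Wnt7a, was lower, at 2.07 ± 0.223 TPM in BP and 18.8 ± 2.42 TPM in NSC (-2.68 ± 0.15), as were the secreted proteins Sfrp2 (-1.18 ± 0.18) and Dkk3 (-1.22 ± 0.19). In all 2 of 19 Wnt genes were called higher and 3 lower, against 1.04% and 5.85% of all genes. None of 15 apical polarity and adherens junction genes was called in either direction, against 6.89% of all genes, and their median was 0.01. So short a list cannot tell this from that share. Its summed level was above NSC in every BP library (2107 to 2168 TPM in BP and 1610 to 1944 TPM in NSC). No member of that list was past 0.74 in size.

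Genes of G2 and mitosis were lower in BP. Of 20 tested G2 and mitosis genes 17 were called lower, against 5.85% of all genes, and none higher, with a median of -1.14. Of 20 replication and S phase genes 3 were called lower and none higher, with a median of -0.59, under the minimum of 1. Yet 15 of those 20 lay below NSC in every library, against 28.6% of all genes. The S phase list summed to 1000 ± 150 TPM in BP and 1463 ± 236 TPM in NSC. Mki67, the proliferation marker, had 31.2, 22.95 and 17.4 TPM in BP libraries, against 100.3, 66.7, 89.5 and 102 TPM in NSC libraries, a difference of -1.89 ± 0.24 (limma, adjusted p = 1.17e-08). The kinetochore proteins Cenpf (7.60 ± 1.99 TPM in BP and 32.6 ± 5.66 TPM in NSC; -1.98 ± 0.24) and Cenpe (-1.80 ± 0.26) followed, and Ccnb1, cyclin B1, had 70.6, 27.6 and 30.3 TPM in BP libraries, against 109.9, 68.7, 79.4 and 128 TPM in NSC libraries (-1.24 ± 0.20). BP replicate 1 was more than 2 times as high as the other BP libraries for Ccnb1 and reached the lowest NSC library, and the gene was not called without BP replicate 2. The count of 17 was 9 without BP replicate 2, 10 without NSC replicate 4, 11 after median ratio scaling, and 19 without both libraries that stood apart. NBN libraries summed to 86.8 to 113 TPM over this list, against 410.1 to 747 TPM in BP and 907 to 1533 TPM in NSC. Of 12 tested G1 genes only Cdkn1a, the p21 inhibitor of cyclin-dependent kinases, was called, higher in BP (14.1 ± 1.75 TPM in BP and 4.05 ± 1.04 TPM in NSC; 1.60 ± 0.20). Ccnd1 and Ccnd2 stood at -0.85 ± 0.18 and -0.63 ± 0.22.

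Among the genes with the largest differences, the 4 farthest below 0 (Dlx1, Olig1, Dlx2 and Gad1) were genes of the ventral forebrain and of oligodendrocyte precursors, not of the radial glia list. Of 13 tested interneuron and ventral forebrain genes 12 were called lower in BP, against 5.85% of all genes, and all 13 lay below NSC in every library, as did 28.6% of all genes. Members such as Gad1, Dlx5 and Sp9 averaged under 1 TPM in BP and passed the level filter through NSC only. Dlx1, a homeodomain factor of inhibitory neurons, had 2.68, 1.21 and 1.15 TPM in BP libraries, against 249, 151, 133 and 86.2 TPM in NSC libraries, a difference of -5.80 ± 0.47 (limma, adjusted p = 1.4e-14). Its relatives Dlx2 (1.05 ± 0.0915 TPM in BP and 97.1 ± 43.1 TPM in NSC; -5.49 ± 0.42) and Dlx5 (-4.67 ± 0.40), the zinc finger factor Sp9 (-4.39 ± 0.36), and Gad1, an enzyme of GABA synthesis (0.710 ± 0.104 TPM in BP and 65.3 ± 33.8 TPM in NSC; -5.13 ± 0.43), followed. The list summed to 28.0, 23.2 and 25.7 TPM in BP libraries, against 912, 532, 503 and 341 TPM in NSC libraries. NSC replicate 1 was the highest for Dlx1, Dlx2, Dlx5, Sp9 and Gad1, and replicate 4, the library with the most radial glia RNA, the lowest. NBN libraries summed to 16.7 to 30.7 TPM, like BP.

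Oligodendrocyte precursor genes were called lower in 9 of 10 tested cases, against 5.85% of all genes, and all 10 lay below NSC in every library, as did 28.6% of all genes. Members such as Olig1, Olig2, Pdgfra and Sox10 averaged under 1 TPM in BP and passed the level filter through NSC only. Olig1, a bHLH factor of this lineage, had 0.369, 0.492 and 0.787 TPM in BP libraries, against 103, 49.9, 86.2 and 100.2 TPM in NSC libraries, a difference of -5.75 ± 0.26 (limma, adjusted p = 6.22e-24). Olig2 averaged 0.655 ± 0.273 TPM in BP and 48.7 ± 14.2 TPM in NSC (-4.87 ± 0.30), the growth factor receptor Pdgfra 0.644 ± 0.242 TPM in BP and 20.3 ± 5.84 TPM in NSC (-3.66 ± 0.21), and Sox10, which marks committed cells of the lineage, 0.0465 ± 0.0405 TPM in BP and 7.84 ± 2.70 TPM in NSC (-3.02 ± 0.18). The list summed to 15.9 to 19.1 TPM in BP libraries, against 198 to 362 TPM in NSC libraries. NBN libraries lay between, at 54.6 to 59.0 TPM. That sum came mostly from other members of the list, since Olig1, Olig2 and Pdgfra averaged 1.83, 1.40 and 1.48 TPM in NBN. Of 18 tested astroglia genes 9 were called lower, against 5.85% of all genes. Among them was Aldh1l1, a folate enzyme of astrocytes, with 1.24, 1.01 and 1.01 TPM in BP libraries, against 31.3, 18.6, 25.5 and 47.2 TPM in NSC libraries, a difference of -3.85 ± 0.23 (limma, adjusted p = 1.46e-19). Mlc1 (1.29 ± 0.143 TPM in BP and 31.5 ± 12.48 TPM in NSC; -3.75 ± 0.21) and Aldoc (8.68 ± 0.495 TPM in BP and 104.3 ± 51.6 TPM in NSC; -3.32 ± 0.27) were lower too, whereas Gja1 (-0.35 ± 0.26), Aqp4 (-0.71 ± 0.16) and Gfap (-0.70 ± 0.21) were not called.

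**Figure D3:**
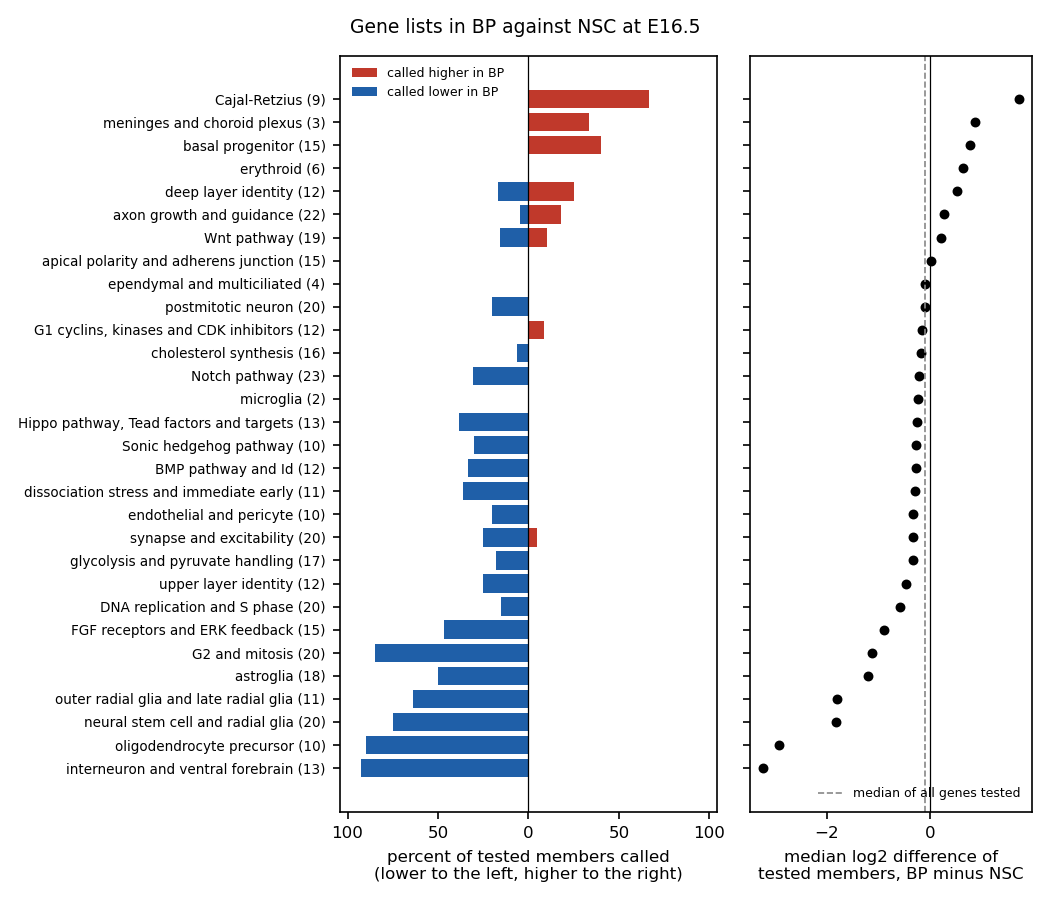
Gene lists ordered by their median difference, with the number of tested members in brackets. Left, the percent of tested members called higher in BP (red, right of 0) and lower (blue, left of 0). Right, the median log2 difference of BP minus NSC as points, with the median of all genes tested (-0.10) as a dashed line. The lists run from interneuron and ventral forebrain genes (-3.25) to Cajal-Retzius genes (1.72).

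The summed level of neuron genes overlapped between BP and NSC. The list of 20 summed to 7376, 8973 and 8810 TPM in BP libraries, against 7822, 9467, 9308 and 6277 TPM in NSC libraries, and 13893 to 14097 TPM in NBN libraries. The NSC libraries thus held neuron RNA at the level of BP. Tubb3, the neuronal tubulin, had 1695, 2082 and 2072 TPM in BP libraries, against 1927, 2069, 2089 and 1304 TPM in NSC libraries (0.10 ± 0.13), and Dcx, a microtubule protein of migrating neurons, was at 0.38 ± 0.25. Of the 20 genes 4 were called, all lower in BP, against 5.85% of all genes: Mef2c, Nefl, Nefm and Mapt. Mef2c, a transcription factor of maturing neurons, had 2.80, 8.93 and 5.17 TPM in BP libraries, against 60.7, 87.6, 84.5 and 36.5 TPM in NSC libraries, a difference of -3.40 ± 0.28 (limma, adjusted p = 1.94e-14). NBN had 146, 125.2 and 134 TPM. The neurofilament gene Nefl averaged 1.13 ± 0.770 TPM in BP and 6.82 ± 1.64 TPM in NSC (-1.92 ± 0.25). Without BP replicate 1 the count was 2, with Mapt at -0.91 and Nefm at -0.94, and Mapt was also lost without NSC replicate 3 (-0.98).

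Of 20 tested synapse and excitability genes 5 were called lower in BP, against 5.85% of all genes, including the receptor subunits Grin2b (4.29 ± 1.85 TPM in BP and 17.46 ± 7.92 TPM in NSC; -1.76 ± 0.29) and Grin1 (-1.18 ± 0.16) and the kinase Camk2a (-2.12 ± 0.19). Syn2, a synapsin, was the only one called higher (66.5 ± 9.87 TPM in BP and 24.5 ± 5.16 TPM in NSC; 1.42 ± 0.17). Gria2 (-1.09 ± 0.30) and Gabra2 (-1.0003 ± 0.31) were lost in several alternatives, for example without BP replicate 1 (-0.76 and -0.89), which left 3. In the upper layer list 3 of 12 were called lower, against 5.85% of all genes, and none higher, and without BP replicate 1 the lower count was 1. Dok5, an adaptor protein, averaged 28.5 ± 2.76 TPM in BP and 94.7 ± 19.96 TPM in NSC (-1.68 ± 0.16) and kept its call, whereas Inhba, an activin subunit (-1.22 ± 0.21), was lost without BP replicate 1 (-0.92). Cux1 and Cux2 were at -0.49 ± 0.09 and -0.44 ± 0.19.

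Set against NBN, the called genes fell into several classes. Of the 817 genes lower in BP, NBN averaged below BP for 327, between BP and NSC for 291 and above NSC for 199, a class that held Mef2c, Mapt, Nefl, Ntsr1 and Dok5. Of the genes higher in BP, NBN averaged below NSC for 64, such as Nhlh1, Neurod4, Lhx9 and Synpr, between for 63 and above BP for 18, such as Reln and Fezf2. The same split was not made over all genes tested, and these genes were chosen because BP lay below or above NSC. The class sizes thus cannot say whether any class is larger than among other genes. The part of neurons in the NSC libraries in these differences was not tested.

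**Figure D4:**
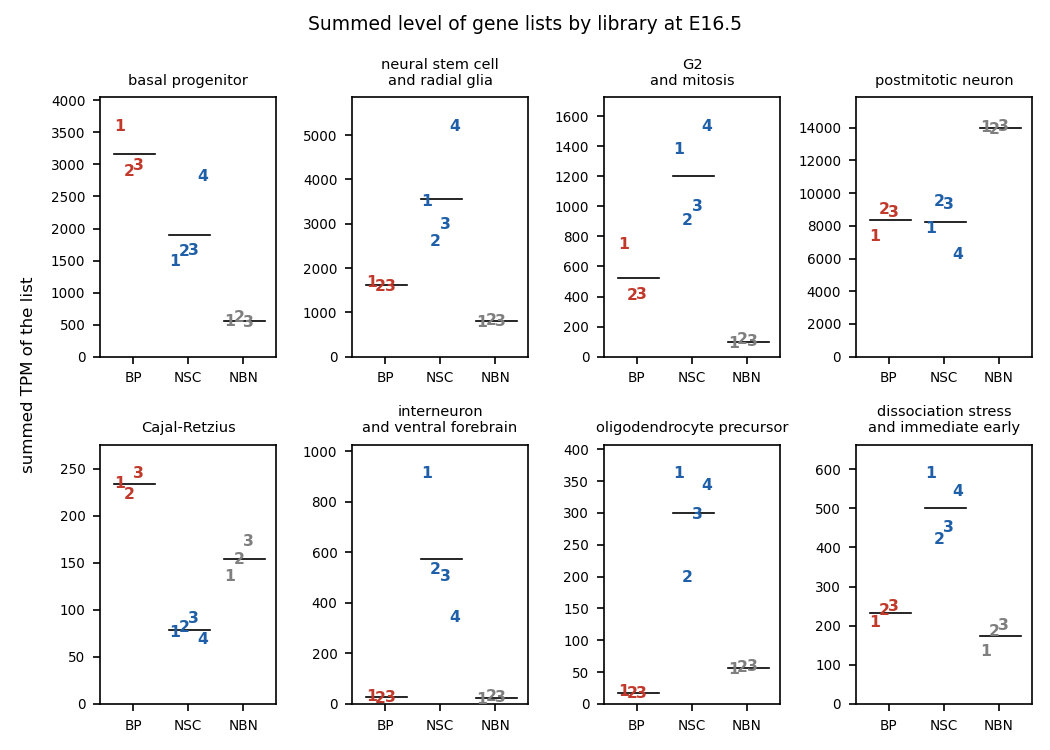
Summed TPM of 8 gene lists in each library at E16.5, with digits marking the replicate number and black lines the group means. BP are red, NSC blue and NBN grey, and each vertical axis starts at 0. Interneuron sums are low in BP and NBN next to NSC, and the neuron sum is alike in BP and NSC. Oligodendrocyte precursor sums are lowest in BP (15.9 to 19.1 TPM) and higher in NBN (54.6 to 59.0 TPM). In NBN, Olig1, Olig2 and Pdgfra make up little of that sum (means of 1.83, 1.40 and 1.48 TPM).

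Immediate early genes, which respond to cell dissociation among other stimuli, were called lower in BP in 4 of 11 tested cases (Fos, Fosb, Egr1 and Jun), against 5.85% of all genes. Fos had 7.88, 5.49 and 8.21 TPM in BP libraries, against 104.8, 59.0, 59.6 and 70.2 TPM in NSC libraries, a difference of -3.16 ± 0.37 (limma, adjusted p = 1.17e-09), and Egr1 had 4.22, 19.8 and 22.5 TPM in BP libraries, against 141, 82.8, 97.5 and 104.98 TPM in NSC libraries (-2.95 ± 0.42). The list summed to 207 to 248 TPM in BP libraries, against 421 to 589 TPM in NSC libraries. Whether handling or cell type set these levels was not tested.

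Among the markers of non-neural cells, erythroid genes had the highest mean summed level in BP and in NSC, and the other lists were lower. Microglia genes summed to 4.87 to 5.45 TPM in BP and 4.01 to 4.82 TPM in NSC libraries, with 2 of 11 passing the filter and 0 called. Endothelial and pericyte genes summed to 9.88 to 17.9 TPM in BP and 17.2 to 34.4 TPM in NSC libraries. Of 10 tested, 2 were called lower in BP, against 5.85% of all genes. These were Pdgfrb (0.629 ± 0.275 TPM in BP and 4.75 ± 1.09 TPM in NSC), a pericyte receptor, and Cspg4 (0.351 ± 0.0362 TPM in BP and 3.79 ± 1.17 TPM in NSC), which oligodendrocyte precursors express as well. Haemoglobin and other erythroid genes summed to 119.9 to 211 TPM in BP and 31.6 to 214 TPM in NSC libraries with no call among 6 tested. Of 3 tested meninges and choroid plexus genes, Ttr was called higher, at 0.328, 13.3 and 8.41 TPM in BP libraries against 0.0908, 0, 0 and 0.108 TPM in NSC libraries, but lost its call without BP replicates 2 or 3 (1.75 and 2.05) or any NSC replicate. The list summed to 2.11, 17.7 and 20.2 TPM in BP libraries and 2.25 to 3.04 TPM in NSC libraries, so BP replicate 1 was at the NSC level. Ependymal genes had no call among 4 tested.

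Of 17 glycolysis and pyruvate genes 3 were called lower in BP, against 5.85% of all genes. They were Aldoc, Eno2 (-1.17 ± 0.17) and Pfkp (-1.12 ± 0.18, not without BP replicate 1 at -0.88). Ldha, lactate dehydrogenase A, was at -0.88 ± 0.10, and none was called higher. Of 16 cholesterol synthesis genes only Idi1 was called lower (-1.09 ± 0.13), a share near that of all genes, and not without BP replicate 1 (-0.98).

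Genes of the sex chromosomes were counted apart because of the Y-linked transcripts in 3 NSC libraries. Of 469 tested genes on the X chromosome 23 were called lower and 0 higher (4.904%, against 6.89% of all genes). Of 10 on the Y chromosome 4 were called lower, including Eif2s3y, a translation initiation factor, with 0, 0.0484 and 0 TPM in BP libraries, against 0.0603, 72.9, 97.3 and 105.02 TPM in NSC libraries. Its BP libraries and NSC replicate 1 were at or near 0. The difference of -4.89 ± 1.81 (limma, adjusted p = 0.0269) was lost with any of 6 single libraries left out and was -0.16 with the Y-linked sum as a covariate, under which 835 genes were lower and 152 higher in BP. Y-linked transcripts were high in 3 NSC libraries and near 0 in NSC replicate 1 and every BP library. The sex that these levels point to thus largely coincided with cell type. This holds for every gene tested, so sex and cell type can be told apart only in part.

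Promoter letters were counted without a test. Of 10002 tested genes matched by symbol to a RefSeq promoter, 23.6% held TGGGAA on either strand within 250 bases before a start. The share was 22% of 100 matched genes higher in BP and 26.4% of 560 lower. The E-box CAGATG was in 16% of the higher and 13.8% of the lower genes, against 12% of all. The E-box CAGCTG was in 14% of the higher and 15.54% of the lower genes, against 14.3% of all. A match does not mark a binding site.

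The difference at E16.5 was set against that at other stages by contrasts in the same fit. The E16.5 libraries enter all of these contrasts, and the filter on levels was set at E16.5 only. Against the mean of the other 7 stages with both cell types (E12.5 to E15.5, E17.5, E18.5 and postnatal day 1, PN), the difference at E16.5 was higher for 296 genes (2.12%) and lower for 860 (6.16%), 8.28% in all. Of the neuron list 14 of 20 were lower in this contrast and of the synapse list 16 of 20, none higher in either, while 9 of 20 radial glia genes, 9 of 19 Wnt genes and 7 of 23 Notch genes were higher (in the Notch list 1 was lower). Without the pair of libraries that stood apart these counts were 15, 15, 9, 11 and 8. The neuron list median was 1.29, 1.47 and 0.61 at E12.5, E13.5 and E14.5, -0.06 at E15.5, -0.11 at E16.5, and 1.41, 2.06 and 1.63 at E17.5, E18.5 and PN. Its summed level was 8386 ± 879 TPM in BP and 8218 ± 1491 TPM in NSC at E16.5, and 9167 ± 215 TPM in BP (n = 2) and 3848 ± 954 TPM in NSC (n = 3) at E17.5. So the level in NSC libraries, not that in BP libraries, was the one that differed more between these stages. One of 3 postnatal NSC libraries, replicate 3, carries the cell type label of BP, whereas its title and reporter line are those of NSC. The postnatal BP libraries had at most 8.21 TPM of Hes5, against 442 TPM in this library and 536 and 458 TPM in the other postnatal NSC libraries. Without it the counts against the mean of the other stages were 296 higher and 848 lower, and the counts of the neuron, synapse, radial glia, Wnt and Notch lists were the same. The part of neuron RNA in the NSC libraries in the stage contrasts was not tested.

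Single genes followed this pattern. Mef2c had a difference of -3.40 at E16.5, against 2.52 at E13.5, -1.58 at E15.5 and 0.46 at E17.5, a contrast with the mean of the other stages of -4.11 ± 0.30 (limma, adjusted p = 1.59e-15). Fam19a2, a secreted protein of neurons, had -3.61 ± 0.23 and Arpp21, a phosphoprotein of neurons, -3.56 ± 0.25. Cck, a neuropeptide, had -3.34 ± 0.41 and Sla, an adaptor protein, -3.59 ± 0.38. At E15.5 the difference was also below 0 for Fam19a2 (-1.81), Sla (-1.56) and Arpp21 (-0.71), but not for Cck (0.07). In the other direction Lef1 had 2.17 ± 0.17 (limma, adjusted p = 1.72e-14), with differences of 0.21 at E15.5, 1.79 at E16.5 and -0.89 at E17.5. Hey1 had 2.17 ± 0.14, with -0.00, 0.99 and -1.69 at these stages. Dmrt3, a doublesex-related transcription factor of cortical progenitors, averaged 11.7 ± 2.58 TPM in BP and 1.61 ± 0.892 TPM in NSC at E16.5 (2.32 ± 0.24) and had 2.62 ± 0.26. For Fzd9, a Wnt receptor (2.65 ± 0.23), and Vcam1, an adhesion molecule (2.42 ± 0.22), the differences at the other stages were below that of E16.5 (0.21 for Fzd9 and -1.03 for Vcam1). Fgf15, a growth factor, had the largest contrast (3.18 ± 0.39), but at E16.5 it was at 1.22 ± 0.202 TPM in BP and 0.523 ± 0.404 TPM in NSC and not called. Eif2s3y was called in this contrast as well (-4.53 ± 1.95) with the limits given above.

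Against E15.5, 1 day earlier, the difference was higher for 66 genes (0.473%) and lower for 351 (2.51%), 2.99% in all. The Cajal-Retzius list had 5 of 9 genes higher and none lower. Its median was 1.91 at E12.5, then 0.37, 0.03 and 0.43 at E13.5, E14.5 and E15.5. It was 1.72 at E16.5 and 1.87, 2.01 and 1.99 at E17.5, E18.5 and PN, so the step was up from the low stages before. Trp73 differed by 0.43 at E15.5 and 3.31 at E16.5, a contrast of 2.88 ± 0.31 (limma, adjusted p = 7.29e-09). Its mean level was 19.0 ± 0.496 TPM (SD, n = 4) in BP and 14.1 ± 3.07 TPM (SD, n = 4) in NSC at E15.5, so NSC were lower at E16.5 (1.27 TPM) while BP were alike (21.1 TPM). Reln had 2.54 ± 0.36 and Nhlh2 2.05 ± 0.29. The oligodendrocyte precursor list had 7 of 10 genes lower and none higher. Olig1 differed by -2.99 at E15.5 and -5.75 at E16.5, a contrast of -2.76 ± 0.35 (limma, adjusted p = 5.03e-07). It averaged 0.156 ± 0.127 TPM (SD, n = 4) in BP and 8.94 ± 4.55 TPM (SD, n = 4) in NSC at E15.5, so NSC were higher at E16.5 (84.9 TPM). Pdgfra had -2.42 ± 0.29 and Olig2 -2.26 ± 0.41. Zic2, a zinc finger factor, was higher (1.75 ± 0.28), and so was Crym (1.83 ± 0.62), which lost its call without any of 4 single libraries. Sst, the neuropeptide somatostatin of interneurons, was lower in BP at both stages but less so at E16.5 (2.27 ± 0.64). Its NSC level was 54.3 ± 36.0 TPM (SD, n = 4) at E15.5 and 6.96 TPM at E16.5, and the call was lost without both libraries that stood apart (2.00). Malat1, a nuclear noncoding RNA (-2.84 ± 0.38), Egr1 (-2.75 ± 0.57) and Dok6, an adaptor protein (-2.17 ± 0.46), were lower. The count of genes lower was 228 without BP replicate 1.

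Against E17.5, with 2 BP libraries and 3 NSC libraries, the contrast was higher for 908 genes (6.5%) and lower for 1855 (13.3%), 19.8% in all. Of the neuron list 15 of 20 and of the synapse list 14 of 20 were lower, and none higher in either. Of the radial glia list 12 of 20 were higher, of the BP list 10 of 15 and of the astroglia list 12 of 18, and none lower. The radial glia median was -1.83 at E16.5 and -2.90 at E17.5, and that of G2 and mitosis genes -1.14 and -2.28. The interneuron median stayed at -3.25 and -3.23. Of the Cajal-Retzius list 2 of 9 genes were higher and 2 lower, with medians of 1.72 and 1.87, and Trp73 was not called (0.41 ± 0.36). Gria2, a glutamate receptor subunit, differed by -1.09 at E16.5 and 3.37 at E17.5 (-4.46 ± 0.47; limma, adjusted p = 2.59e-10), and Arpp21, Dok6, Gabra2, Malat1 and the sulphotransferase gene Hs6st2 gave contrasts from -4.77 to -3.96. Serpine2, a protease inhibitor (3.19 ± 0.30), the gap junction gene Gja1 (3.14 ± 0.41), the guidance cue Ntn1 (2.91 ± 0.45), Vcam1 and Fzd9 were higher. Ttr was as well (6.32 ± 1.52).

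**Figure D5:**
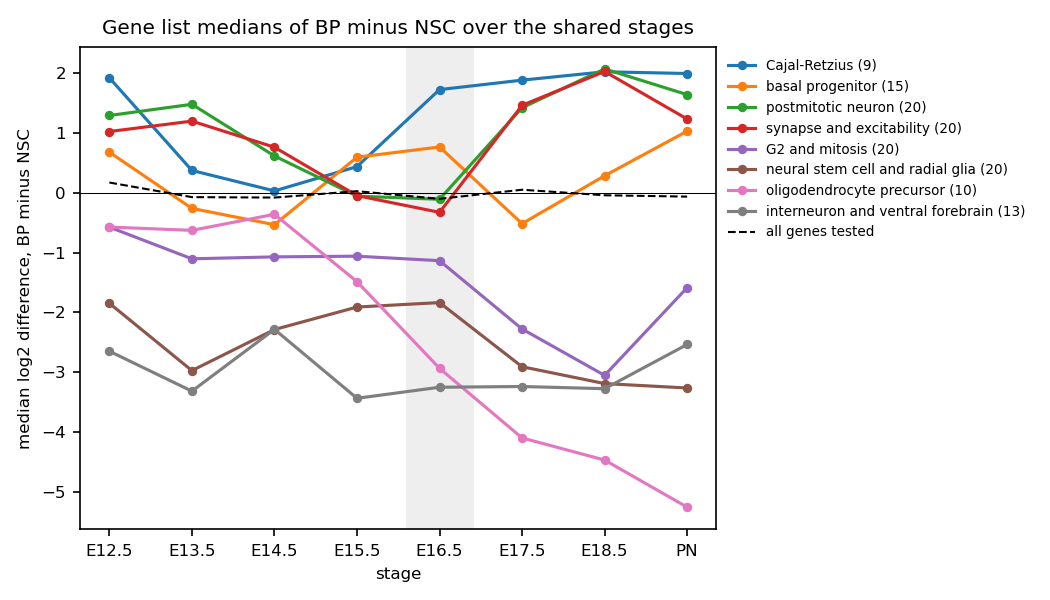
Median log2 difference of BP minus NSC of the tested members of 8 gene lists (number in brackets) and of all genes tested (dashed) at the 8 stages with both cell types, with E16.5 shaded. Neuron and synapse medians are near 0 at E15.5 and E16.5 and above 1 at E12.5, E13.5 and from E17.5. The Cajal-Retzius median lies at 0.43 at E15.5 and at 1.72 at E16.5, near its values at E12.5 (1.91), E17.5 (1.87), E18.5 (2.01) and PN (1.99). The oligodendrocyte precursor median lies at -1.49 at E15.5 and -2.93 at E16.5, and farther below 0 at the later stages (-4.09, -4.46 and -5.25).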

How the data were processed

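Cells of C57Bl/6 embryos were dissociated with papain and sorted for GFP, and total RNA taken with TRIzol was sequenced as single-end reads of 50 bases from TruSeq libraries, per the labels' protocols. The deposited table holds TPM per gene for 70 libraries. Per the submitters' processing notes, the tool was kallisto 0.43.0, and the genome is named as both mm10 and GRCm38.p2. TPM gives shares of each library, so a gene can shift because others do, and it keeps no depth. All 70 columns matched a sample by name, and groups follow the titles, also for postnatal NSC replicate 3, whose cell type label is BP.

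From these values log2(TPM + 1) was fitted with limma 3.58.1 (R 4.3.3) with 1 mean for each of 23 groups, 47 residual degrees of freedom and a variance trend. Stage contrasts come from the same fit. The procedure was tested on simulated data. Gene lists are described by counts and medians, with no test. Genes were named where the groups did not overlap, the higher group averaged at least 20 TPM and the difference was among the 12 largest called in its direction (6 for stage contrasts, in which overlap was not considered and any group compared could reach 20 TPM). Predicted, Rik, ribosomal and mitochondrial genes were left out, and list members were named in addition. The comparison and the lists were chosen with earlier results of these data known. Nhlh1 and Trp73 were picked for their promoters after their values were seen. Gene positions are those of GENCODE M21, promoters those of RefSeq. Alternatives covered the pseudocount, level filter, scaling, libraries fitted, variance trend, array weights, a replicate block, a Y-linked covariate and each library left out. The fits without NSC replicate 4 and BP replicate 1, and without postnatal NSC replicate 3, were added after the data were seen.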

Additional observations from a re-analysis of the deposited data

Results flagged for a closer look

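In 4 of 54 groups of 4 libraries examined, 1 NSC library lay apart from the other 3, where chance gives about 1 in 20. The groups reuse the same NSC libraries, and Neurod4 is itself a member of the BP list. They are thus not independent, and the count is a description. NSC replicate 3 had 2.14 TPM of Trp73. NSC replicate 4 had 14.6 TPM of Neurod4 and a summed BP list level of 2811 TPM. NSC replicate 1 had 9.13 TPM of Kit, the lowest of its group.

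For 11 of the 24 genes with the largest differences between BP and NSC at E16.5, the difference itself departed from the mean of the other 7 stages by the call rule, against 8.28% of all genes. The 24 were chosen at E16.5 and the same libraries enter this contrast, so the count and the log2 values are a description, with no test. It was higher at E16.5 for Trp73 (1.86), Lhx9 (1.41), Synpr (1.24), Nhlh1 (1.20) and Nhlh2 (1.15). E16.5 was not the highest stage for all of these. Nhlh2 differed by 2.97 at E16.5, 4.04 at E18.5 and 3.21 at PN, Nhlh1 by 2.82, 3.12 and 2.91, and Lhx9 by 2.60 at E16.5 and 2.70 at E12.5. Hes5 was also higher by 1.20, which left it less far below NSC than at the other stages. The difference was lower at E16.5 for Eif2s3y (-4.53), Olig1 (-1.97), Gad1 (-1.93), Olig2 (-1.32) and Tnc (-1.25). Eif2s3y lost this call in 15 alternatives, among them the Y-linked covariate (-0.17). For Olig1, Olig2 and Tnc the difference lay farther below 0 at E17.5, E18.5 and PN than at E16.5. Olig1 had -5.75 at E16.5 and -6.46, -6.29 and -6.48 at these stages. Olig2 had -4.87 and then -5.29, -5.45 and -5.53, and Tnc -4.88 and then -5.80, -5.88 and -5.68. Gad1 went the other way, from -5.13 to -3.23, -2.71 and -1.85.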

How the results depend on the processing

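The direction of the calls, with more genes lower than higher in BP, was the same in all 20 alternatives. A pseudocount of 5 gave 68 genes higher and 318 lower, a pseudocount of 0.1 gave 1317 lower, and quantile normalization gave 288 higher and 485 lower; the cause was not tested. Leaving out single libraries gave 136 to 164 higher and 769 to 885 lower. For the contrast with the mean of the other stages, a pseudocount of 5 gave 108 higher and 420 lower, quantile normalization 527 higher, and single libraries left out 239 to 423 higher and 648 to 1056 lower. For the contrast with E15.5, a pseudocount of 5 gave 21 higher and 95 lower, quantile normalization 156 higher and 1.9e2 lower (rounded), median ratio scaling 230 lower, a pseudocount of 0.1 619 lower, and a mean of at least 5 TPM, which tests fewer genes, 42 higher. Single libraries left out gave 51 to 79 higher and 228 to 480 lower, the fewest lower calls without BP replicate 1 and the most without BP replicate 2, and the fewest higher calls without NSC replicate 2 and the most without BP replicate 1. For the contrast with E17.5, a pseudocount of 5 gave 525 higher and 1083 lower, quantile normalization 1385 higher, and single libraries left out 806 to 1072 higher and 1663 to 2053 lower. The Y-linked genes Ddx3y (0.20), Kdm5d (0.16) and Uty (0.20) reversed with the Y-linked sum as a covariate. Of the 24 genes with the largest differences, 23 kept their call in all 20 alternatives and Eif2s3y lost it in 9. Same-numbered BP and NSC libraries deviated together with correlations of 0.029, 0.154 and 0.261. Differently numbered ones ranged from -0.444 to 0.468. Deviations from the means of so few libraries can neither show nor exclude pairing. The numbers were not taken as pairs because the labels do not say that they mark shared animals, and the reporter lines differ. The replicate block gave 143 higher and 813 lower, and 158 and 846 with the 7 libraries alone. In that last fit NSC replicate 4 is the only library with its number, so it adds nothing to the difference. The fit of array weights reported no full convergence. Depth is unknown, so the counting error of weakly expressed genes cannot be given.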
